A study of Drosophila melanogaster with 17 samples.

Results

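The proteasome subunit genes are the genes that encode the parts of the 26S proteasome, the barrel-shaped protease that degrades ubiquitin-tagged proteins. They were taken as the genes whose name in the deposited matrix begins with Pros, Rpn or Rpt and whose mean over the 17 libraries was at least 1 FPKM, a level that is scaled to transcript length and to the size of the library. Of 14659 genes in the matrix, 42 had such a name and 28 of these met the minimum, among 2383 genes in all that did. The libraries came from fat bodies of female Drosophila larvae at the wandering stage of the third instar, kept since hatching on semi-defined food whose sucrose was 0.15 M in the control diet and 0.7 M in the diet called high sugar. Wild type here means VDRC w1118 larvae carrying cgGAL4 and UAS-Dcr2, with 6 libraries on each diet. Knockdown larvae carried UAS-ChREBPi(52606), an RNA interference construct against ChREBP, together with the same cgGAL4 and UAS-Dcr2, with 3 libraries for the control diet and 2 for high sugar. ChREBP, also called Mondo and named dmondo in the matrix, is a transcription factor that responds to sugar. The cgGAL4 driver is known to act in fat body and in blood cells, every group carries the driver and Dcr2, no group carries a control interference construct, and a single interference line was used.

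In the proteasome, alpha subunits form the outer rings of the 20S core and gate the entrance, while beta subunits form the inner rings and carry the protease sites on beta1, beta2 and beta5. The 19S regulatory particle caps the core: its Rpt subunits form a ring of ATPases that unfolds substrates and feeds them into the core, and its Rpn subunits bind ubiquitin chains, remove them and hold the particle together. The subunits are needed in near-equal amounts and are made in all tissues, and in flies as in mammals their genes are known to be induced together by a cap'n'collar transcription factor when proteasome activity falls short. In the larval fat body, the tissue that stores nutrients and secretes larval serum proteins, the proteasome works beside autophagy in protein turnover.

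The 28 genes held 13 subunits of the 20S core and 15 of the 19S regulatory particle. The core genes were 7 of the alpha ring and 6 of the beta ring, and the regulatory genes were 5 Rpt and 10 Rpn genes. Several carry older names: Pros25 is Prosalpha2, Pros29 is Prosalpha3, Pros28_1 is Prosalpha4, Pros35 is Prosalpha6, Pros26 is Prosbeta6, Pros26_4 is Rpt2, Pros45 is Rpt6 and Pros54 is Rpn10. Of 33 subunits listed for the particle, the other 5 stand in the matrix under names that the rule does not match, namely CG17331 (Prosbeta4), Tbp-1 (Rpt5), Mov34 (Rpn8), CG13349 (Rpn13) and CG13779 (Sem1), and they are given separately. All 28 genes were above 0 in all 17 libraries. Of the 14 matching names below the minimum, 8 were listed at 0 in every library, and 13 of the 14 are paralogues of core or regulatory subunits such as Prosalpha3T and Rpt4R. The remaining name, Prosap, belongs to a Shank-family scaffold gene that is no proteasome subunit, and with a mean of 0.0907 FPKM it was the nearest below the minimum. Rpn1, at 1.70 FPKM, was the nearest above it.

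The labels give the replicates 1 to 3 of each group 1 barcode per group and give wild-type replicates 4 to 6 a barcode each, so the wild-type libraries fall into a shared-barcode and an own-barcode set of 3 per diet, and knockdown was compared with the shared-barcode set alone. With 1 barcode per group, an effect of the barcode cannot be told apart from genotype or diet within that set. Whether its groups shared sequencing runs is not stated in the sources used here. On the control diet dmondo, the targeted gene, stood at 1.60 to 1.83 FPKM in shared-barcode wild type and at 0.310 to 0.535 in the knockdown. On high sugar it stood at 2.41 to 3.01 and at 0.187 to 0.286. The Spearman correlation of the 2 knockdown high-sugar libraries with the other 15 over the tested genes was 0.435 to 0.628, against 0.502 to 0.893 between other libraries of different groups or sets, with which it overlaps. It was 0.934 between these 2 libraries and 0.853 to 0.945 between libraries of the same group and set. In these 2 libraries the summed level of 7 fat body markers, all above 0 in every library, was 2369 and 2727 FPKM against 5269 to 12236 elsewhere, and the rank correlation of level with transcript length was -0.48 in both, against -0.29 to 0.07 elsewhere. Their summed level of 8 salivary gland glue genes was 6577 and 6794 FPKM, above the 5.58 to 604 of own-barcode wild type and the 2132 to 6051 of the other shared-barcode libraries, but the genes of the list went both ways. Against the other shared-barcode libraries Sgs5, Sgs8 and ng3 were higher without overlap and Sgs1, Sgs3, Sgs4 and Eig71Ee lower, while Sgs7 overlapped: Sgs8 was at 3011 and 2944 FPKM against 549.6 to 1239 FPKM, and Sgs3 at 21.4 and 43.6 FPKM against 194 to 675 FPKM. The summed level of 9 midgut proteases was 231 and 294 FPKM against at most 128 elsewhere, and 7 of the 9 were above all 15 other libraries. Their summed level of 8 hemocyte markers was 195 and 448 FPKM, within or above the 22.4 to 317 of the other shared-barcode libraries, with He above and Hml and eater below each of these. In bulk tissue a smaller number of cells of a type and less RNA per cell cannot be told apart, and the part these values play in the results below was not tested. Of the 28 genes, 11 share exon bases on the opposite strand with another coding gene in the Release 6 annotation, and since the sources used here do not say that strand was used in counting, reads of the partners cannot be told apart there. These are Pros25, Pros26_4, Pros45, Prosalpha1, Prosbeta1, Prosbeta2, Prosbeta3, Prosbeta5, Rpn7, Rpn9 and Rpt4, and the partner reached a mean of at least 1 FPKM only for Prosbeta1 (CG8389), Prosbeta3 (CG11980), Rpn7 (CG34376) and Rpn9 (CG10365).

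The median core gene lay above the median regulatory gene, with overlap between the classes: Rpn6 (6.79 FPKM), Rpn9 (5.10 FPKM) and Rpn5 (4.97 FPKM) were above the core median and Prosalpha1 (3.16 FPKM) was below the regulatory median. Over the 17 libraries the median of the gene means was 4.70 FPKM for the core and 3.37 FPKM for the regulatory particle, with median annotated transcript lengths of 973 and 1488 bases. Pros25, an alpha ring subunit, was highest at 10.5 FPKM and Rpn1, the large base subunit that docks ubiquitin shuttles, was lowest at 1.70 FPKM, a 6.16-fold span. In shared-barcode wild type on the control diet Pros25 was at 12.3, 12.8 and 13.7 FPKM and in own-barcode wild type at 7.91, 7.08 and 7.61 FPKM. Rpn1 was at 1.36, 0.812 and 1.52 FPKM and at 2.66, 2.45 and 1.70 FPKM in the same sets. The sets did not overlap for either gene, and they differed in opposite directions.

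Within the classes the order was as follows. In the alpha ring Prosalpha1 was lowest at 3.16 FPKM, and Pros35 was second to Pros25 at 7.03 FPKM. In the beta ring Pros26 (6.56 FPKM) and Prosbeta2 (6.52 FPKM), which carries the trypsin-like site, were highest and Prosbeta1 (3.85 FPKM), which carries the caspase-like site, was lowest. Among the ATPases Pros45 (4.09 FPKM) was highest and Rpt3 (2.32 FPKM) lowest, and among the Rpn genes Rpn6, a lid subunit that bridges lid and core, was highest at 6.79 FPKM. Rpn6 stood at 6.50, 5.85 and 6.75 FPKM in shared-barcode and 6.52, 5.80 and 4.28 FPKM in own-barcode wild type on the control diet, with overlap between the sets. The order of the 28 genes was nearly the same in the shared-barcode groups other than knockdown on high sugar: Spearman's rho of the group means was 0.95 to 0.97 between these 3 groups. Against knockdown on high sugar it was 0.32 to 0.47 for every other group and set, as a description over 28 genes that share their libraries. There the gene means spanned 29.2-fold, from Prosbeta3 to Prosbeta5, against 3.87-fold to 11.8-fold in the other groups and sets.

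**Figure D1:**
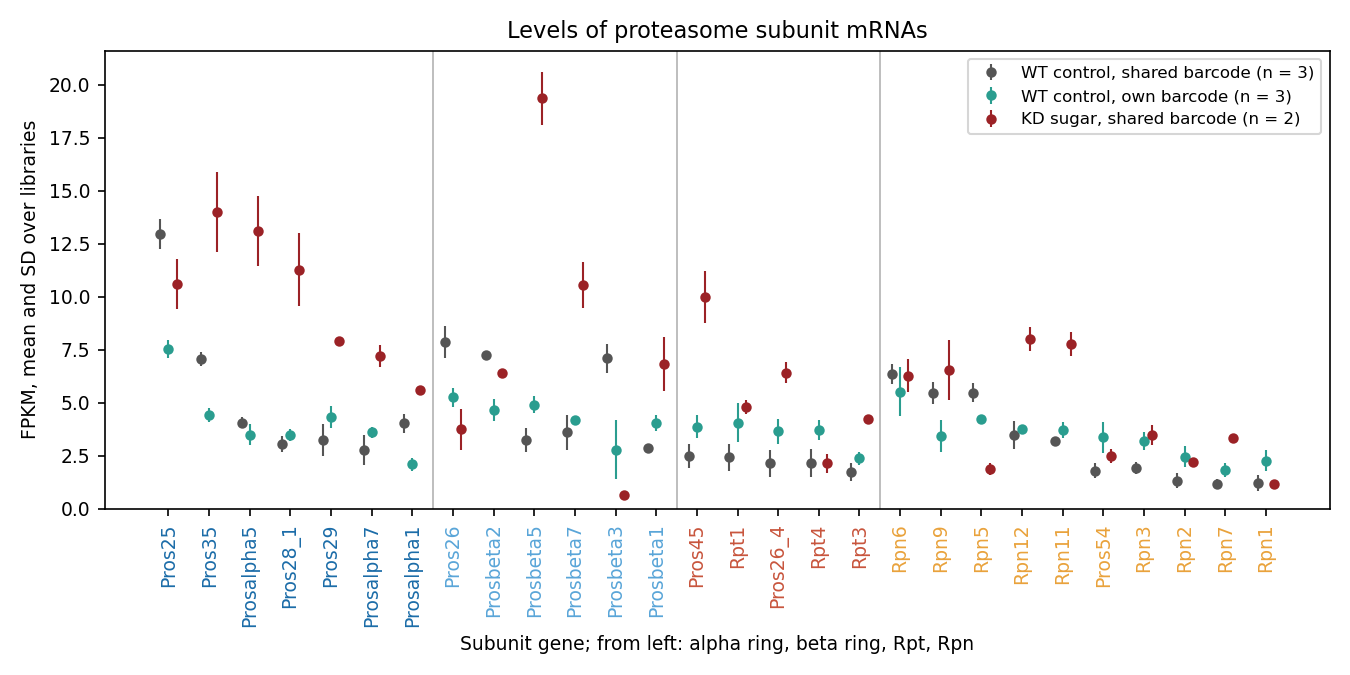
Level of each of the 28 proteasome subunit genes in FPKM (vertical axis), as the mean and SD over libraries, in wild type on the control diet with shared barcodes (n = 3) or own barcodes (n = 3) and in the knockdown on high sugar (n = 2), by role along the horizontal axis. Pros25 was the highest gene in both wild-type sets, and Prosbeta5 the highest in the knockdown on high sugar.

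The core and regulatory genes were then compared over the 4 groups. In every library the mean log2(FPKM + 1) of the 13 core genes was above that of the 15 regulatory genes. The summed FPKM of the core was higher in 15 of the 17 libraries and lower in replicate 5 of wild type on each diet, at 53.6 against 53.7 and at 60.4 against 63.1. In shared-barcode wild type the difference was 0.65 to 0.82 on the control diet and 0.48 to 0.53 on high sugar. In own-barcode wild type it was 0.16 to 0.31 and 0.14 to 0.25. In the knockdown it was 0.47 to 0.68 on the control diet and 0.67 and 0.84 on high sugar. The barcode sets thus did not overlap on either diet, while the groups within the shared set overlapped except for wild type on high sugar, which lay below wild type on the control diet and below the knockdown on high sugar.

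In the knockdown on high sugar the core mean lay well outside the range of the other libraries and the regulatory mean just outside it. The core mean was 3.02 and 3.20 there against 2.27 to 2.62 in all 15 others, and the regulatory mean was 2.35 and 2.36 against 1.69 to 2.34. Summed FPKM of the 28 genes was 180 and 196 in these 2 libraries and 98.0 to 131 in the rest. As a share of the column total the 28 genes made up 0.314% and 0.322% there, above the 0.208% to 0.267% of the other shared-barcode libraries and within the 0.285% to 0.360% of own-barcode wild type. Against shared-barcode wild type on high sugar, the core mean was 0.62 higher and the regulatory mean 0.38 higher, so the core minus regulatory difference was 0.24 higher. The SD of that difference was 0.12 over the 2 knockdown libraries and 0.03 over the 3 wild-type libraries, with a root mean square of 0.09. With the trend of level against transcript length removed from each library, the core minus regulatory change turned in sign, to -0.24. The core was then 0.32 and the regulatory genes 0.55 higher. With every library scaled to the same column total that change was 0.22, with the core 0.35 and the regulatory genes 0.13 higher.

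**Figure D2:**
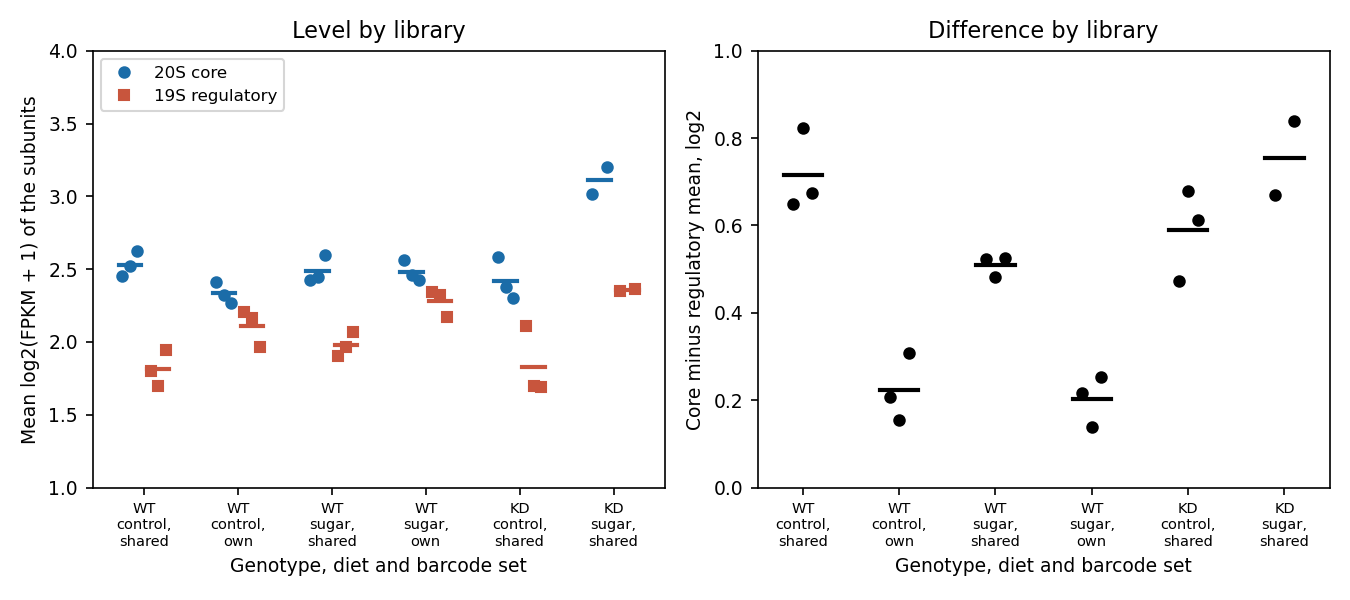
Mean log2(FPKM + 1) of the 13 core and 15 regulatory genes in each library (left) and the difference of both means (right), by genotype, diet and barcode set, with points for libraries and bars for group means. The difference was 0.14 to 0.31 in own-barcode wild type and 0.47 to 0.84 in the shared-barcode groups.

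High sugar in wild type asks whether the diet alone moves the proteasome genes. A gene passed the test, here and below, when limma's moderated comparison of log2(FPKM + 1) gave a Benjamini-Hochberg adjusted p under 0.05 over the 2383 tested genes. The diet changed few of the subunit genes: 1 of 28 passed the test, higher on high sugar, where 23.6% of all tested genes passed, 13.8% as higher and 9.82% as lower. That gene was Pros54 (Rpn10), a ubiquitin receptor of the regulatory particle. In shared-barcode wild type Pros54 was at 1.89, 1.40 and 2.08 FPKM on the control diet and 2.58, 2.47 and 2.99 FPKM on high sugar. In own-barcode wild type it was at 4.06, 3.43 and 2.62 FPKM and 4.22, 4.41 and 4.14 FPKM. High sugar was above the control diet without overlap in both sets. The difference, averaged over the sets, was 0.34 ± 0.11 SE, adjusted p = 0.038 on the log2(FPKM + 1) scale. It did not pass within the shared-barcode set (0.40, adjusted p = 0.16) or the own-barcode set (0.28, adjusted p = 0.19). The call was lost under 17 of the other settings, with adjusted p between 0.0505 and 0.354, among them the fit on the shared-barcode libraries alone (0.40, adjusted p = 0.24).

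The other 27 genes did not pass. Their median with Pros54 was 0.14 on the log2 scale, 0.11 for the core and 0.19 for the regulatory genes, against 0.02 over all tested genes. The estimate was above 0 for 21 of the 28. With every library scaled to the same column total the median was 0.01, with -0.01 for the core and 0.06 for the regulatory genes. The 28 genes made up 0.208% to 0.225% of the shared-barcode column totals on the control diet and 0.230% to 0.256% on high sugar. Of the own-barcode totals they made up 0.309% to 0.360% and 0.285% to 0.304%, lower on high sugar without overlap. The direction in the own-barcode set thus depended on the scaling. Rpn2 and Rpn3, scaffold subunits of base and lid, were also above the control diet in each shared-barcode library: Rpn2 was at 1.54, 0.923 and 1.51 FPKM on the control diet and 1.60, 1.60 and 1.64 FPKM on high sugar, with 0.23 ± 0.09 SE, adjusted p = 0.088. Rpn3 was at 1.91, 1.65 and 2.22 FPKM and 2.44, 2.60 and 2.99 FPKM, with 0.23 ± 0.10 SE, adjusted p = 0.10. In the shared-barcode set 3 of the 28 were above the control diet without overlap and 3 below, where 9.11% and 17.6% of all tested genes were. Those below were core alpha genes, Pros35, Prosalpha1 and Prosalpha5. In the own-barcode set 6 were above and 0 below, where 32.4% and 18.5% of all tested genes were, and these 3 alpha genes overlapped there. Within either set by itself 0 of the 28 passed. Of all tested genes, 6.38% passed in the shared-barcode set, 1.68% as higher and 4.70% as lower. In the own-barcode set 33.4% passed, 21.4% as higher and 12.1% as lower. At an unadjusted limma p under 0.05 there were 4 of the 28 in the shared and 2 in the own set. Of the 2383 tested genes there were 467 and 1036. The diet effects of the 2 sets differed for 0 of the 28 by the test of the difference itself. They differed for 19.8% of all tested genes, 13.7% with the higher and 6.17% with the lower value in the own-barcode set. At an unadjusted p under 0.05 they differed for 1 of the 28 and for 836 of the 2383 tested genes.

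Knockdown on the control diet asks what lowering ChREBP does without the sugar load. It changed 1 of 28 genes, Prosalpha1, which fell, where 10.0% of all tested genes passed, 3.48% as higher and 6.55% as lower. Prosalpha1 is an alpha ring subunit. It was at 3.31, 2.26 and 2.24 FPKM in the knockdown and 4.09, 4.46 and 3.56 FPKM in shared-barcode wild type, without overlap, and at 2.32, 1.74 and 2.22 FPKM in own-barcode wild type, whose range reached below the knockdown. The difference from the shared-barcode set was -0.49 ± 0.14 SE, adjusted p = 0.037. The call was lost under 14 of the other settings, with adjusted p between 0.0503 and 0.686. CG30382, whose current name is Prosalpha1R, is a near-identical copy of Prosalpha1, and its values followed it closely: it was at 2.98, 2.04 and 2.24 FPKM in the knockdown and 3.81, 4.46 and 3.59 FPKM in shared-barcode wild type, with -0.54 ± 0.15 SE, adjusted p = 0.04. Reads of the copies may be split between them, so the values of Prosalpha1 are uncertain.

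Of the other 27 genes on the control diet, Prosalpha5 was below shared-barcode wild type in every library, at 3.39, 3.64 and 2.07 FPKM against 3.79, 4.13 and 4.29 FPKM, without passing (-0.35 ± 0.16 SE, adjusted p = 0.18). Rpn6 was above it in every library, at 7.63, 8.14 and 9.61 FPKM against 6.50, 5.85 and 6.75 FPKM (0.36 ± 0.17 SE, adjusted p = 0.20). Together with Pros35 and Prosalpha1 that made 2 genes above and 2 below without overlap, where 8.94% and 13.9% of all tested genes were. The median of the 28 estimates was -0.03, with -0.05 for the core and -0.0012 for the regulatory genes, against -0.06 over all tested genes.

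On high sugar the knockdown differed from wild type at most of these genes. Of the 28, 16 rose, 3 fell and 9 did not pass, a share of calls near that of all tested genes, of which 63.8% passed, but with a larger share higher: 30.3% of all tested genes rose and 33.6% fell. These rest on the 2 libraries with the lower fat body marker sum, the higher midgut sum, the glue genes that went both ways and the stronger relation of level to length given above, whose part in the changes was not tested. The core had 9 rises and 2 falls among 13 genes, and the regulatory particle 7 rises and 1 fall among 15. The median change was 0.78 on the log2(FPKM + 1) scale, 0.96 for the core and 0.29 for the regulatory genes, against -0.04 over all tested genes. By the values alone, the knockdown libraries were above all 3 shared-barcode wild-type libraries for 18 genes and below for 6, where 37.4% and 39.9% of all tested genes were. They were above all 15 other libraries, own-barcode wild type included, for 15 genes (9 core, 6 regulatory) and below for 3, where 21.8% and 22.0% of all tested genes were.

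**Figure D3:**
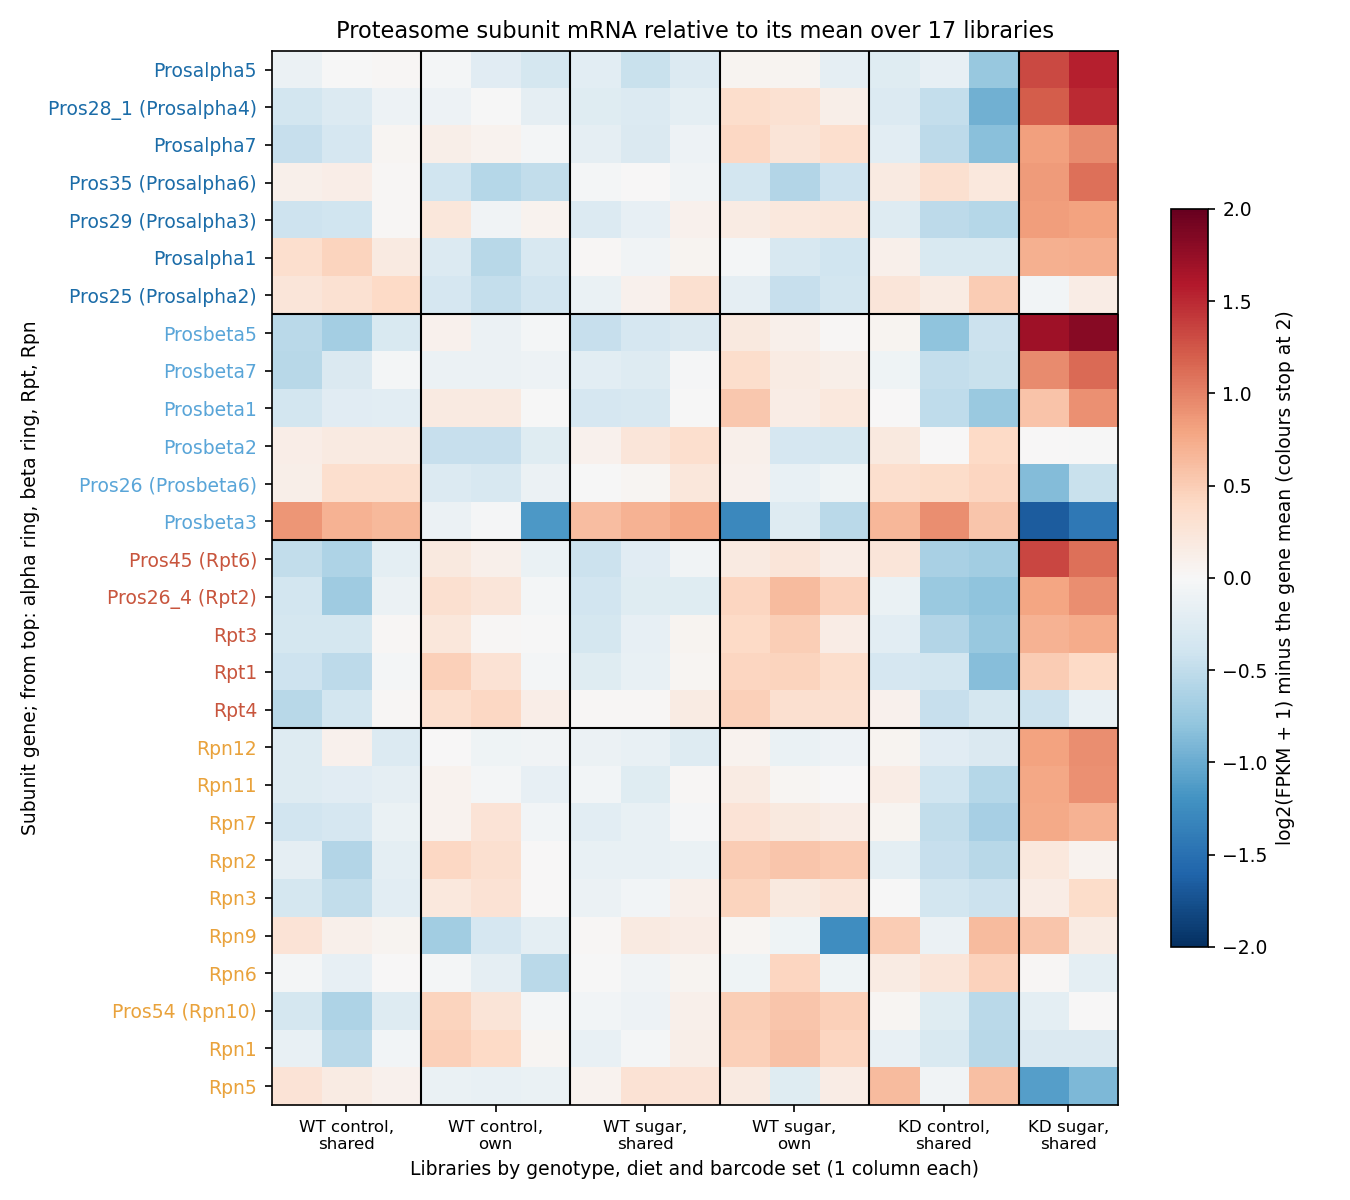
Level of each subunit gene in each of the 17 libraries as log2(FPKM + 1) minus its mean over the libraries (colour), with genes in rows by role and libraries in columns by genotype, diet and barcode set. The 2 columns of the knockdown on high sugar are the highest of the 17 for 15 genes and the lowest for Prosbeta3, Rpn5 and Pros26.

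In the alpha ring 6 of 7 genes rose. Prosalpha5 was at 11.9 and 14.3 FPKM in the knockdown on high sugar and 3.49, 2.79 and 3.30 FPKM in shared-barcode wild type on the same diet. It was at 3.79, 4.13 and 4.29 FPKM in shared-barcode wild type on the control diet and 3.04 to 4.41 FPKM in the own-barcode libraries of both diets. The knockdown libraries on high sugar were above every other library, with a 4.10-fold higher mean than shared-barcode wild type and a change of 1.75 ± 0.17 SE, adjusted p = 1.8e-06. Pros28_1 (Prosalpha4) was at 10.1 and 12.5 FPKM against 3.04, 2.97 and 3.20 FPKM, and in the knockdown on the control diet at 2.97, 2.45 and 1.46 FPKM. The own-barcode libraries spanned 3.25 to 5.14 FPKM. Its change of 1.59 ± 0.18 SE, adjusted p = 4.5e-06 was the next in size in this ring, again with no overlap.

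Prosalpha7 was at 6.84 and 7.57 FPKM against 2.94, 2.66 and 3.14 FPKM (1.07 ± 0.17 SE, adjusted p = 1.1e-04). Pros35 (Prosalpha6) was at 12.7 and 15.3 FPKM against 6.42, 6.66 and 6.26 FPKM (1.00 ± 0.12 SE, adjusted p = 9.8e-06). Pros29 (Prosalpha3), part of the gate of the core, was at 7.97 and 7.83 FPKM against 3.14, 3.49 and 4.35 FPKM (0.94 ± 0.16 SE, adjusted p = 1.5e-04). These 3 genes also stood above every other library, with own-barcode wild-type ranges of 3.34 to 4.93 FPKM for Prosalpha7, 4.06 to 4.90 FPKM for Pros35 and 3.81 to 4.89 FPKM for Pros29. Prosalpha1 was at 5.57 and 5.67 FPKM against 3.07, 2.85 and 3.17 FPKM (0.72 ± 0.15 SE, adjusted p = 9.6e-04), and its copy CG30382 at 5.50 and 5.72 FPKM against 3.19, 2.82 and 3.20 FPKM (0.70, adjusted p = 0.0025). Prosalpha1 lost its call with the length trend removed (0.34, adjusted p = 0.064). Pros25, the most abundant subunit gene, was at 9.77 and 11.4 FPKM against 9.24, 10.9 and 13.0 FPKM, overlapping, with -0.04 ± 0.16 SE, adjusted p = 0.82.

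The beta ring went both ways, with 3 rises and 2 falls among 6 genes. Prosbeta5, which carries the chymotrypsin-like site, was at 18.5 and 20.2 FPKM in the knockdown on high sugar and 3.37, 3.73 and 3.92 FPKM in shared-barcode wild type. It was at 5.21, 2.42 and 3.44 FPKM in the knockdown and 3.15, 2.76 and 3.87 FPKM in shared-barcode wild type on the control diet, and 4.54 to 5.88 FPKM in own-barcode wild type. This was the largest rise among the 28 genes, 5.27-fold on the FPKM means and 2.12 ± 0.20 SE, adjusted p = 9.3e-07. Prosbeta7 was at 9.80 and 11.3 FPKM against 3.83, 3.69 and 4.52 FPKM (1.21 ± 0.16 SE, adjusted p = 2.4e-05). Prosbeta1 was at 5.92 and 7.74 FPKM against 2.69, 2.71 and 3.64 FPKM (0.96 ± 0.20 SE, adjusted p = 7.7e-04). For both, the knockdown libraries stood above all 15 others, with own-barcode ranges of 4.14 to 6.16 FPKM for Prosbeta7 and 3.61 to 5.75 FPKM for Prosbeta1. For Prosbeta1 the margin was small.

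Prosbeta3, a structural subunit of the same ring, was at 0.522 and 0.805 FPKM in the knockdown on high sugar against 6.46, 6.82 and 7.29 FPKM in shared-barcode wild type. It was at 6.67, 8.23 and 6.14 FPKM in the knockdown and 7.88, 6.86 and 6.58 FPKM in shared-barcode wild type on the control diet, and 0.988 to 3.75 FPKM in own-barcode wild type. The knockdown high-sugar libraries were below all others, the lowest own-barcode library by a small margin, and the mean was 10.3-fold lower than in shared-barcode wild type (-2.24 ± 0.31 SE, adjusted p = 2.8e-05). Prosbeta3 therefore had the lowest and Prosbeta5 the highest mean of the 28 genes in the same 2 libraries. Pros26 (Prosbeta6) was at 3.06 and 4.43 FPKM against 6.34, 6.55 and 7.59 FPKM, below every other library, with -0.73 ± 0.15 SE, adjusted p = 5.5e-04. Prosbeta2 was at 6.48 and 6.35 FPKM against 6.89, 7.79 and 8.36 FPKM, below without overlap but not past the test (-0.22 ± 0.16 SE, adjusted p = 0.23).

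Of the 5 ATPase genes 4 rose. Pros45 (Rpt6) was at 10.8 and 9.12 FPKM in the knockdown on high sugar against 2.47, 3.02 and 3.46 FPKM in shared-barcode wild type, and at 4.59, 2.00 and 1.91 FPKM in the knockdown on the control diet. Its change was 1.47 ± 0.24 SE, adjusted p = 1.0e-04, and the own-barcode libraries, at 3.26 to 4.54 FPKM, lay below both. Pros26_4 (Rpt2), the ATPase known to open the gate of the core, was at 6.07 and 6.79 FPKM against 2.13, 2.46 and 2.44 FPKM, with own-barcode wild type at 2.98 to 5.32 FPKM and a change of 1.15 ± 0.21 SE, adjusted p = 2.3e-04. Rpt3 was at 4.14 and 4.32 FPKM against 1.50, 1.85 and 2.31 FPKM (0.87 ± 0.18 SE, adjusted p = 7.1e-04), with own-barcode wild type at 2.17 to 3.49 FPKM. All 3 stood above every other library. Rpt1 was at 5.04 and 4.58 FPKM against 2.60, 2.84 and 3.38 FPKM (0.56 ± 0.19 SE, adjusted p = 0.02), within the own-barcode range of 3.11 to 4.90 FPKM in 1 of its 2 libraries. Its call was lost with no set term (0.31, adjusted p = 0.35), with column totals made equal (0.30, adjusted p = 0.20), without replicate 1 of the knockdown on high sugar (0.51, adjusted p = 0.10), without replicate 2 (0.62, adjusted p = 0.053) and without replicate 1 of wild type on high sugar (0.50, adjusted p = 0.06). Rpt4 was at 1.83 and 2.45 FPKM against 2.90, 2.89 and 3.27 FPKM, below without overlap and not past the test (-0.36 ± 0.19 SE, adjusted p = 0.10).

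Of the 10 Rpn genes 3 rose, 1 fell and 6 did not pass. Rpn12, a lid subunit, was at 7.62 and 8.41 FPKM against 3.58, 3.48 and 3.16 FPKM (1.03 ± 0.14 SE, adjusted p = 2.7e-05). Rpn11, the deubiquitinase that clips ubiquitin chains from substrates, was at 7.37 and 8.16 FPKM against 3.68, 3.10 and 3.95 FPKM (0.94 ± 0.17 SE, adjusted p = 2.9e-04). Rpn7, also of the lid, was at 3.46 and 3.26 FPKM against 1.27, 1.40 and 1.60 FPKM (0.85 ± 0.17 SE, adjusted p = 5.7e-04). All 3 were above every other library, with own-barcode ranges of 3.50 to 4.22 FPKM for Rpn12, 3.35 to 4.45 FPKM for Rpn11 and 1.54 to 2.20 FPKM for Rpn7. Rpn5, another lid subunit, was at 1.66 and 2.07 FPKM in the knockdown on high sugar, 5.01, 6.02 and 5.91 FPKM in shared-barcode wild type, 7.89, 4.43 and 7.66 FPKM in the knockdown on the control diet and 3.86 to 5.48 FPKM in own-barcode wild type. It fell below every other library, by 3.02-fold on the means of high sugar (-1.21 ± 0.20 SE, adjusted p = 9.8e-05).

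Among the 6 Rpn genes that did not pass, Rpn2 and Rpn3 were above shared-barcode wild type in both libraries, at 2.33 and 2.05 FPKM against 1.60, 1.60 and 1.64 FPKM for Rpn2 (0.29, adjusted p = 0.10) and 3.14 and 3.82 FPKM against 2.44, 2.60 and 2.99 FPKM for Rpn3 (0.28, adjusted p = 0.11). Rpn1 was below in both libraries, at 1.14 and 1.15 FPKM against 1.37, 1.54 and 1.85 FPKM (-0.26, adjusted p = 0.18). Rpn6 was at 6.83 and 5.73 FPKM against 6.61, 6.29 and 7.03 FPKM (-0.07, adjusted p = 0.74), Rpn9 at 7.56 and 5.55 FPKM against 4.96, 5.65 and 5.47 FPKM (0.24, adjusted p = 0.53) and Pros54 at 2.25 and 2.73 FPKM against 2.58, 2.47 and 2.99 FPKM (-0.08, adjusted p = 0.72). For Rpn6 and Pros54 the groups overlapped, and for Rpn9 the lower of both knockdown libraries lay within the wild-type range.

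**Figure D4:**
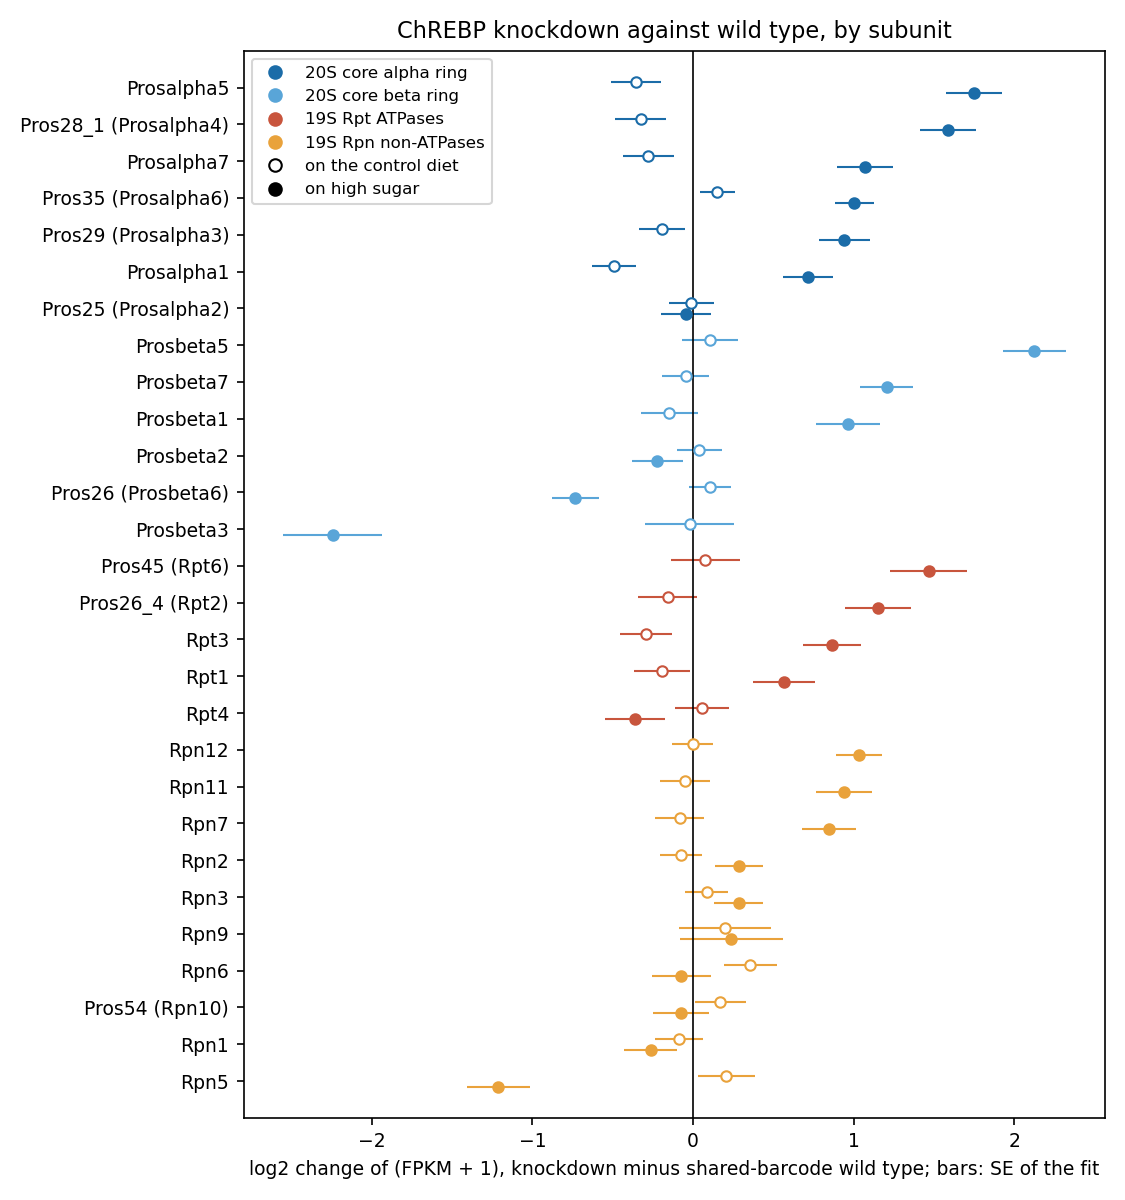
Change of each subunit gene in the knockdown against shared-barcode wild type on the log2(FPKM + 1) scale (horizontal axis), on the control diet (open points, 3 against 3 libraries) and on high sugar (filled points, 2 against 3), with bars for the SE of the fit and genes by role. On the control diet the estimates lie between -0.49 and 0.36, and on high sugar between -2.24 and 2.12.

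Transcript length moved with these changes and differs between the classes, the core genes being shorter. Over the 2298 tested genes with a length, the change on high sugar had a Spearman correlation with length of -0.44. Over the 28 genes it was -0.23, within the core 0.42 and within the regulatory genes -0.44, as descriptions over genes that share their libraries. With the length trend removed from each library, 18 of the 28 rose and 5 fell, against 16 and 3 before, where 28.5% and 29.8% of all tested genes with a length did, against 30.3% and 33.6% of all tested genes before. The core then had 8 rises and 4 falls with a median of 0.60, and the regulatory genes 10 rises and 1 fall with a median of 0.72, so the order of the medians turned. The 3 genes that were long and did not pass before rose under that setting: Rpn2 by 1.01, adjusted p = 2.6e-06, Rpn3 by 0.49, adjusted p = 0.0055 and Rpn1, whose sign turned, by 0.39, adjusted p = 0.019. Pros25, at -0.43, adjusted p = 0.024, and Prosbeta2, at -0.48, adjusted p = 0.0095, then fell. Prosbeta5, Prosalpha5, Pros28_1 and Pros45 kept rises of at least 1.33, and Prosbeta3 fell by 2.64. With every library scaled to the same column total the median over all tested genes moved to -0.24, and 15 of the 28 rose and 7 fell, where 22.2% and 40.6% of all tested genes did. Rpn1 passed as lower there (-0.43, adjusted p = 0.045), so that its direction depended on the scaling.

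**Figure D5:**
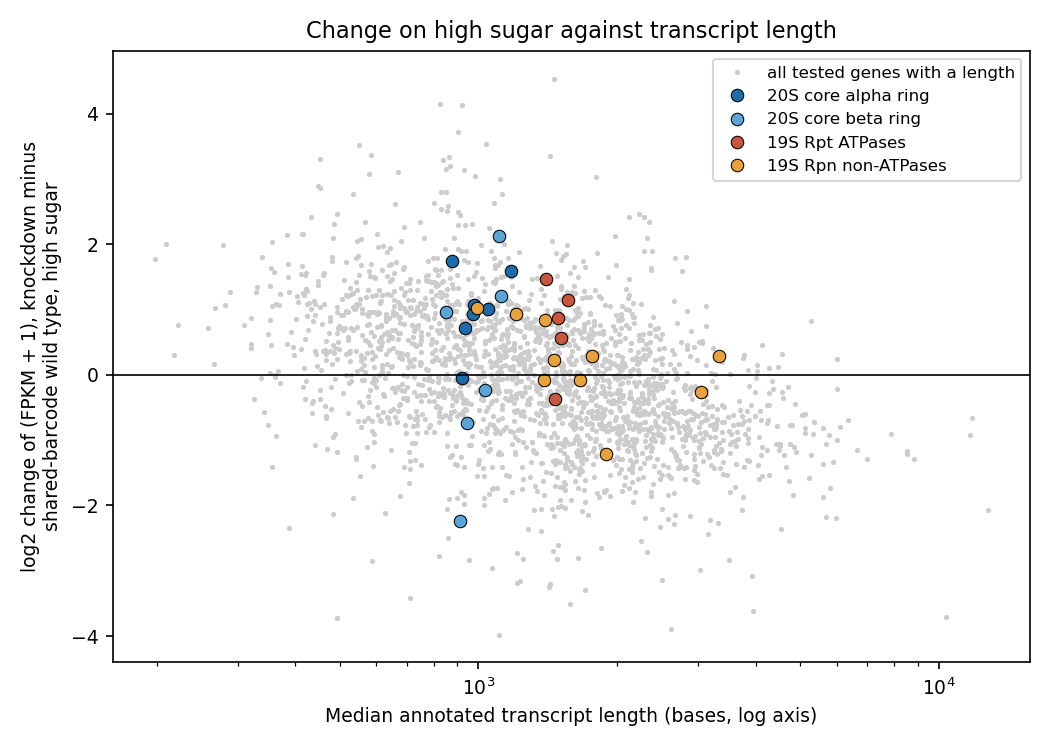
Change in the knockdown against shared-barcode wild type on high sugar, on the log2(FPKM + 1) scale (vertical axis), against median annotated transcript length in bases (horizontal log axis), for 2298 tested genes (grey) and the 28 subunit genes by role (colours). The core genes lie at 852 to 1176 bases and the regulatory genes at 995 to 3325 bases, and both classes hold genes above and below 0.

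Within the knockdown, high sugar against the control diet gave 18 rises and 3 falls among the 28 genes, where 65.1% of all tested genes passed, 31.6% as higher and 33.5% as lower. This comparison shares the knockdown high-sugar libraries with the one before, so their values are given side by side and not as separate support. The core had 9 rises and 2 falls and the regulatory genes 9 rises and 1 fall, with medians of 1.16 and 0.54 against 0.01 over all tested genes. Rpn2 and Rpn3 rose here: Rpn2 was at 1.52, 1.11 and 0.973 FPKM on the control diet and 2.33 and 2.05 FPKM on high sugar (0.54 ± 0.15 SE, adjusted p = 0.0049), and Rpn3 at 2.69, 1.89 and 1.77 FPKM and 3.14 and 3.82 FPKM (0.53 ± 0.15 SE, adjusted p = 0.0066). Neither passed with column totals made equal, and without replicate 2 of the knockdown on high sugar Rpn3 gave 0.42, adjusted p = 0.079. Prosbeta5 rose by 2.16 ± 0.20 SE, adjusted p = 5.3e-07, from control-diet values of 5.21, 2.42 and 3.44 FPKM. Prosbeta3, at 6.67, 8.23 and 6.14 FPKM on the control diet, fell (-2.26 ± 0.31 SE, adjusted p = 2.1e-05). With column totals made equal there were 16 rises and 6 falls, where 24.9% and 37.2% of all tested genes rose and fell.

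The interaction asks whether the diet effect in the knockdown differs from that in shared-barcode wild type, and it was positive for 16 genes and negative for 3, where 54.3% of all tested genes passed, 27.0% as positive and 27.3% as negative. The 16 were those that rose in the knockdown on high sugar, and the 3 were Prosbeta3, Rpn5 and Pros26. Prosalpha5 had the largest value: its mean estimate was -0.28 for the diet in shared-barcode wild type and 1.82 in the knockdown, a difference of 2.10 ± 0.23 SE, adjusted p = 1.2e-05. For Prosbeta5 the diet effects were 0.14 and 2.16, a difference of 2.02 ± 0.26 SE, adjusted p = 3.9e-05. Rpt1 had the smallest of the 16, 0.76 ± 0.26 SE, adjusted p = 0.024, and lost its call under 7 of the other settings, with adjusted p between 0.0524 and 0.175. For Prosbeta3 the diet effects were -0.04 and -2.26, a difference of -2.22 ± 0.42 SE, adjusted p = 5.7e-04. The median over the 28 genes was 0.89, with 1.14 for the core and 0.36 for the regulatory genes, against 0.05 over all tested genes. With column totals made equal 15 were positive and 6 negative, where 17.1% and 32.1% of all tested genes were, and the median over all tested genes was -0.20.

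The barcode sets of wild type also differed at these genes, and on the control diet the classes went mostly apart. On the control diet 8 of the 28 were higher and 6 lower in own-barcode than in shared-barcode libraries, where 47.2% of all tested genes passed, 6.59% as higher and 40.6% as lower. The 8 were 7 regulatory genes and Prosbeta5, and the 6 lower genes were all of the core. Pros54 was higher by 0.64 ± 0.16 SE, adjusted p = 0.004, and Rpn2, at 1.54, 0.923 and 1.51 FPKM in the shared and 2.85, 2.62 and 1.91 FPKM in the own set, by 0.57 ± 0.13 SE, adjusted p = 0.0026. Pros25, whose values are given above, was lower (-0.71 ± 0.14 SE, adjusted p = 9.2e-04), and Prosbeta3, at 7.88, 6.86 and 6.58 FPKM and 3.44, 3.75 and 1.18 FPKM, was lower as well (-1.17 ± 0.28 SE, adjusted p = 0.0032). On high sugar 11 were higher (5 core, 6 regulatory) and 4 lower (all core), where 51.9% of all tested genes passed, 17.5% as higher and 34.4% as lower. Without overlap, 11 of the 28 were above and 8 below on the control diet, where 8.69% and 48.8% of all tested genes were, and 17 above and 3 below on high sugar, where 24.5% and 40.5% were. Column totals on the control diet were 29779 to 33181 in the own-barcode and 48416 to 53148 in the shared-barcode set. With every library scaled to the same column total, 29.3% of all tested genes were higher and 13.2% lower in the own-barcode set on that diet. On high sugar 23.1% were higher and 29.1% lower. The calls of the subunit genes were not followed over this scaling. Over the genes with a length the difference between the sets on the control diet had a Spearman correlation with length of 0.40, and over the 28 genes 0.53. The glue gene sum was 33.8 to 604 FPKM in the own-barcode and 2179 to 3654 FPKM in the shared-barcode libraries of the control diet, and its part in these differences was not tested. The barcode is the label by which the sets are known, and what else differed between them is not given in the sources used here.

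Of the 5 subunits under other names 1 passed in the knockdown on high sugar, where 63.8% of all tested genes and 19 of the 28 subunit genes did. Sem1 (CG13779), a small lid subunit, rose: it was at 33.5 and 32.4 FPKM against 16.5, 21.5 and 22.5 FPKM (0.69 ± 0.15 SE, adjusted p = 0.0013). Prosbeta4 (CG17331) was at 10.7 and 10.2 FPKM against 7.44, 7.97 and 8.95 FPKM (0.33, adjusted p = 0.07). Rpn8 (Mov34), at 3.38 and 3.36 FPKM against 1.84, 2.20 and 2.84 FPKM, gave 0.42, adjusted p = 0.053, Rpn13 (CG13349) gave 0.29, adjusted p = 0.15 and Rpt5 (Tbp-1) gave -0.07, adjusted p = 0.89. By limma 0 of the 5 passed for the diet in wild type, where 23.6% of all tested genes did. For knockdown on the control diet it was 0 as well, where 10.0% of all tested genes passed. At an unadjusted limma p under 0.05 there were 0 of the 5 in both, against 856 and 578 of the 2383 tested genes.

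Among 7 measured activators, inhibitors and assembly factors, 3 rose and 1 fell in the knockdown on high sugar, 57.1% of the list where 63.8% of all tested genes passed, a share near the background. REG, the nuclear proteasome activator, rose by 0.68 ± 0.11 SE, adjusted p = 9.5e-05, and CG2046, also on this list, by 0.98 ± 0.13 SE, adjusted p = 1.7e-05. PI31 (CG8979), a regulator of proteasome assembly and transport, rose by 0.39 ± 0.12 SE, adjusted p = 0.012. In wild type it was lower on high sugar than on the control diet (-0.22, adjusted p = 0.049). That was the only call in this list for the wild-type diet, where 23.6% of all tested genes passed. Usp14 (CG5384), a deubiquitinase bound to the regulatory particle, fell (-0.78 ± 0.13 SE, adjusted p = 1.2e-04). The assembly factor Pomp gave -0.39, adjusted p = 0.53.

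Of 13 measured genes of ubiquitin supply and of the delivery of substrates, 3 rose and 5 fell in the knockdown on high sugar, 61.5% of the list where 63.8% of all tested genes passed, a share near the background. The polyubiquitin gene Ubi-p63E rose (1.79 ± 0.69 SE, adjusted p = 0.037), as did the ubiquitin fusion gene RpS27A (0.60, adjusted p = 0.0042) and TER94, the fly p97 segregase (0.52, adjusted p = 0.027). Rad23, a shuttle that brings ubiquitinated proteins to the proteasome, fell from 6.14, 7.00 and 5.98 FPKM in shared-barcode wild type to 1.37 and 1.13 FPKM (-1.71 ± 0.13 SE, adjusted p = 3.3e-07). The ubiquitin conjugating enzyme Ubc6 (UbcD6) fell as well (-1.51, adjusted p = 3.5e-07), as did the ubiquitin-like modifier Nedd8 (-1.29, adjusted p = 1.5e-05) and the shuttles Ubqn (-0.63, adjusted p = 0.0014) and rngo (CG4420, -0.41, adjusted p = 0.016). Ubc6 was the only gene of the 13 to pass in wild type on high sugar (-0.26, adjusted p = 0.025). Of all tested genes 23.6% passed there. By limma 0 of the 13 passed for knockdown on the control diet, where 10.0% of all tested genes did. At an unadjusted p under 0.05 the count was 1, against 578 of the 2383 tested genes. Of the regulators, cnc, the gene of the fly cap'n'collar factor, gave -0.68, adjusted p = 0.11 in the knockdown on high sugar, and its partner maf-S rose (0.87 ± 0.30 SE, adjusted p = 0.023).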

How the data were processed

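Fat body RNA of 17 libraries in 4 groups was analysed. Per the submitters' processing notes, the authors used Bowtie 0.12.7, TopHat 1.3.2 and Cufflinks 1.1.0 with genome build dm3; the annotation is not given in the sources used here. The authors' deposited matrix was read as FPKM, the output of Cufflinks, since its header names no unit. Column totals of 29778.6 to 62263.5 leave a further scaling possible. Depth is unknown, so no counting interval is given.

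Values were tested as log2(FPKM + 1), which understates changes of low genes, for genes with a mean of at least 1 over the libraries. The model (limma 3.58.1 under R 4.3.3) held a mean for each group and barcode set, 6 in all, with variances moderated by a robust trend, after a check on simulated data. Tests were 2-sided with Benjamini-Hochberg adjustment over the 2383 genes within a comparison and a threshold of 0.05. The wild-type diet effect is the average of that in each set; an additive set term was not used because 473 genes differ in diet effect between the sets. Labels call the replicates biological without naming separate cultures, so p-values measure the spread between these samples.

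Every subunit gene could be named. Genes called in the knockdown on high sugar have values for each library of the groups compared, and values of other groups are given for some. The extremes of each class and the genes next to the minimum are given at least by their means. The members and lists were chosen with earlier results of these data known. Lengths and neighbouring genes come from the Release 6 annotation, a build other than the authors', and 28 of the 28 genes had a length. Alternatives were other set terms, pseudocounts, filters, scalings, removal of the length trend by loess (span 0.5), the replicate number as a block, and leaving out libraries.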

Additional observations from a re-analysis of the deposited data

Results flagged for a closer look

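Of 62 tests for an outlying value, 3 gave a flag, and chance gives about 1 in 20 where the libraries are alike. The tests covered the subunit genes, the core and regulatory means and their difference, in wild type on each diet. Each test pooled the libraries of both barcode sets, which differ at many of these genes, so that rate need not hold here. Rpn6 was low in replicate 6 of wild type on the control diet, at 2.40 on the log2(FPKM + 1) scale (4.28 FPKM), against 5.80 to 6.75 FPKM in the other 5. Rpn6 was high in replicate 5 of wild type on high sugar, at 3.38 (9.41 FPKM), against 6.25 to 7.03 FPKM in the others. Rpn9, a lid subunit, was low in replicate 6 of wild type on high sugar, at 1.31 (1.47 FPKM), against 4.51 to 5.65 FPKM in the others. All 3 are own-barcode libraries.

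For 19 of the 28 genes the diet effect in the knockdown differed from that in shared-barcode wild type by the test of the difference. Of all tested genes 54.3% passed this test, 27.0% as positive and 27.3% as negative. All 19 rest on the 2 knockdown high-sugar libraries, whose fat body marker sum and relation of level to length differ from the other libraries; their part in the result was not tested. On the log2 scale the difference was 2.10 for Prosalpha5, 1.91 for Pros28_1, 1.35 for Prosalpha7, 1.21 for Prosalpha1, 1.14 for Pros29 and 0.85 for Pros35 in the alpha ring. In the beta ring it was 2.02 for Prosbeta5, 1.25 for Prosbeta7, 1.11 for Prosbeta1, -0.84 for Pros26 and -2.22 for Prosbeta3. Among the ATPases it was 1.39 for Pros45, 1.31 for Pros26_4, 1.16 for Rpt3 and 0.76 for Rpt1. Among the Rpn genes it was 1.03 for Rpn12, 0.99 for Rpn11, 0.93 for Rpn7 and -1.42 for Rpn5.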

How the results depend on the processing

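The calls in wild type and on the control diet depended on the setting. The wild-type diet count of 1 became 0 with no set term, with no filter, with quantile normalization, with libraries scaled to the same column total or median, with the replicate block and without wild-type replicates 4 to 6, and 2 with the length trend removed. The count of 1 for knockdown on the control diet became 0 with an additive or no set term, with no filter, with quantile normalization, with both scalings, with the replicate block and without wild-type replicates 4 to 6. Both counts were also 0 at a minimum mean of 5. That filter removes Pros54 (mean 2.81 FPKM) and Prosalpha1 (mean 3.16 FPKM) before the test, so it says nothing on these 2 calls. The counts of 19 for knockdown on high sugar, 21 for the knockdown diet effect and 19 for the interaction each became 3 at a minimum mean of 5, where 7 of the 28 genes were left to test. Leaving out 1 library at a time gave 0 to 1, 0 to 1, 18 to 19, 20 to 21 and 18 to 20 calls in the order of the report; without 1 knockdown high-sugar library the lone one left is assumed to vary like the others. The replicate numbers were not used to pair the samples in the main fit. Over 18 pairs with the same number the correlation of deviations from the group means was -0.24 to 0.22 and above 0.1 in 5. Pairs of different number were not compared, so this does not settle whether the numbers pair the samples. With the replicate block the 3 larger counts were 19, 21 and 19. The core minus regulatory difference on high sugar of 0.24 became -0.24 with the length trend removed and 0.34 at a minimum mean of 5, and 0.16 to 0.33 leaving out 1 library at a time; the cause was not tested. No subunit gene called in these 5 comparisons changed sign under these settings. The calls between the barcode sets of wild type were not followed over the settings. Rpn1 in the knockdown on high sugar, at -0.26 and not called, passed as higher (0.39) with the length trend removed and as lower (-0.43) with libraries scaled to the same column total. Over all tested genes, 563 calls for the wild-type diet became 370 with an additive set term, 167 with none and 83 without wild-type replicates 4 to 6. For knockdown on the control diet 239 became 134, 121 and 135. The interaction had 1295 calls and 833 with no set term. At a minimum mean of 5 the counts of the 5 comparisons over all tested genes were 240, 115, 502, 530 and 436, with fewer genes tested, and with no filter knockdown on high sugar, the knockdown diet effect and the interaction had 4313, 4259 and 3071 calls, with more genes tested, against 1521, 1552 and 1295. Depth is unknown, so how far counting error limits the low genes was not tested.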
